A study of Mus musculus with 59 samples.

Results

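The pons of mice heterozygous for a duplicated expanded repeat in Atxn3 was set against the pons of mice heterozygous for the same expansion in a single copy. Spinocerebellar ataxia type 3 is caused by a long CAG repeat in the ataxin-3 gene, which is read as a run of glutamines near the C-terminal end of the protein. Ataxin-3 is a deubiquitinating enzyme made in most cells of the body. The pons is among the brain regions hit in patients, and carries the noradrenaline neurons of the locus coeruleus, much myelinated fibre, and a dense network of astrocytes and vessels. Astrocytes clear glutamate and potassium and touch vessels with their endfeet, and endothelial cells with their pericytes form the blood-brain barrier.

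The libraries used are 10 of the 59 samples in the labels. The 6 dupKi-het mice carried one knock-in allele of Atxn3 with a duplicated Q82 repeat, and the 4 Ki-het mice carried one knock-in allele with a single Q82 repeat. Wild-type mice (n = 6) were used as a further comparison, and 4 libraries each of homozygous single-repeat knock-in mice and of YAC84Q and YAC15Q transgenic mice entered the fit to estimate the spread. All mice were on a C57BL/6 background, and each library came from the pons of its own mouse, as far as the design text says. Xist at 1.29 to 2.74 FPKM and Ddx3y at no more than 0.0215 FPKM marked all 28 libraries of the fit as female. The Y-linked gene Eif2s3y did not go with this, at 24.5 to 33.4 FPKM in dupKi-het and 16.8 to 29.1 FPKM in Ki-het. It has a near-identical X-linked copy, so its FPKM are uncertain, and sex was read from Xist and Ddx3y only. Age is not given in the sources used here, and the other Atxn3 allele of a heterozygote is the mouse's own. The deposited values are FPKM, fragments scaled by transcript length and library total, which pool both alleles, so mutant and normal Atxn3 transcripts cannot be told apart. Levels below are in FPKM, and every log2 difference is one of log2(FPKM + 1), so the change of a weakly expressed gene comes out too small.

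The tissue label was checked against a regional gene. The hindbrain patterning gene Hoxb3 lay at 5.49 to 8.29 FPKM in dupKi-het and at 5.19 to 8.21 FPKM in Ki-het libraries. Summed FPKM per library ran from 430083 to 533463 in dupKi-het and from 523993 to 554097 in Ki-het libraries. These sums include genes listed at 0 in all dupKi-het libraries but high in Ki-het. Among them were mt-Cytb (7827 to 13129 FPKM in Ki-het) and mt-Nd1 (7727 to 14513 FPKM in Ki-het). The ranges of the sums are therefore not like for like. The number of sequenced fragments is unknown. Ttr, the chief transcript of the choroid plexus, ranged widely inside both groups, at 14.2 to 2470 FPKM in dupKi-het and 33.3 to 3125 FPKM in Ki-het libraries. The first principal component (12.8% of the variance) set apart 6 of the 28 libraries, which were the libraries numbered 1 of each of the 6 genotypes, dupKi-het 1 and Ki-het 1 among them; for wild-type that number is the order of the column names. The labels do not say what libraries of the same number share. Results were therefore also computed without dupKi-het 1 and Ki-het 1.

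Atxn3 itself was higher in dupKi-het pons. It stood at 10.7, 13.4, 10.4, 12.8, 12.7 and 10.7 FPKM in dupKi-het libraries, against 6.92, 6.19, 5.84 and 5.47 FPKM in Ki-het libraries. The lowest dupKi-het library was above the highest Ki-het library, and above all wild-type libraries, whose highest value was 8.15 FPKM. The mean was 11.8 ± 1.31 FPKM in dupKi-het (SD, n = 6) and 6.10 ± 0.620 FPKM in Ki-het (SD, n = 4), a log2 difference of 0.85 (SE 0.09, limma adjusted p = 9.84e-07). An exact two-sided permutation test over the 210 arrangements of the 10 libraries gave p = 0.00476, the smallest this design allows. Atxn3 was also higher in dupKi-het than in wild-type pons (mean 7.05 FPKM), by a log2 difference of 0.67 (limma adjusted p = 2.89e-06), while the difference of -0.18 between Ki-het and wild-type did not pass (limma adjusted p = 0.461). Atxn3 was called higher in dupKi-het than in Ki-het in each of the 10 fits that left out 1 library. The same held in each of 14 other alternative fits. The labels do not say how much of the gene is duplicated, and FPKM give no position of fragments. More transcripts and more fragments from a duplicated stretch therefore cannot be told apart.

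Beyond Atxn3, many genes differed between the knock-in lines. Of 14802 genes tested, 1577 (10.7%) were called between dupKi-het and Ki-het at a limma adjusted p under 0.05. The calls were 1161 (7.84% of genes tested) higher and 416 (2.81%) lower in dupKi-het. These shares are the background for the counts of each gene list below. Lists and members were chosen with earlier results of these data known. A list's count beside the background therefore describes the list and is not a test of it. A positive difference was found in 8306 of the 14802 genes. Each line was also set against the same wild-type libraries. There, 375 genes (2.53%) were called for dupKi-het, 172 (1.16%) higher and 203 (1.37%) lower, and 17 genes (0.115%) were called for Ki-het, 2 (0.0135%) higher and 15 (0.101%) lower; the total of 17 was 5 without Ki-het 1, 7 without Ki-het 2, 6 without Ki-het 3 and 11 without dupKi-het 4. The count between the lines depended on single libraries and on scaling. It was 885 without Ki-het 1, 988 without Ki-het 2, 1028 without dupKi-het 5 and 716 without both dupKi-het 1 and Ki-het 1. With library medians made equal, 1691 genes were called and the split turned to 675 higher and 1016 lower, so that 39.9% of calls were higher in place of 73.6%. The median difference of all genes was 0.03 as deposited and -0.03 with equal medians, so small differences of many genes together follow the scaling.

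The difference moved with transcript length. Among 14066 genes with a known transcript length, split into quintiles, 20.7% of the longest quintile were called higher and 0.747% lower in dupKi-het, against 1.95% higher and 4.73% lower in the shortest quintile. The median log2 difference was 0.12 in the longest quintile and -0.07 in the shortest. Across genes, which are not independent replicates, Spearman's rho between the difference and length was 0.369. The libraries themselves carried this slope: log2 level per doubling of length, relative to the mean of all libraries, was between 0.0149 and 0.0369 in dupKi-het libraries 1 to 5 and -0.0316 in dupKi-het 6, against -0.0286 to -0.0150 in the 4 Ki-het libraries. With each library's trend on length and GC content removed, 1149 of 14066 genes (8.17%) were called, 766 (5.45%) higher and 383 (2.72%) lower. With the slope as a covariate 63 genes were called, 20 higher and 43 lower. Apart from dupKi-het 6 the slopes of the groups did not overlap, so in that fit slope and genotype can hardly be told apart. Both settings were chosen after the data were seen.

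**Figure D1:**
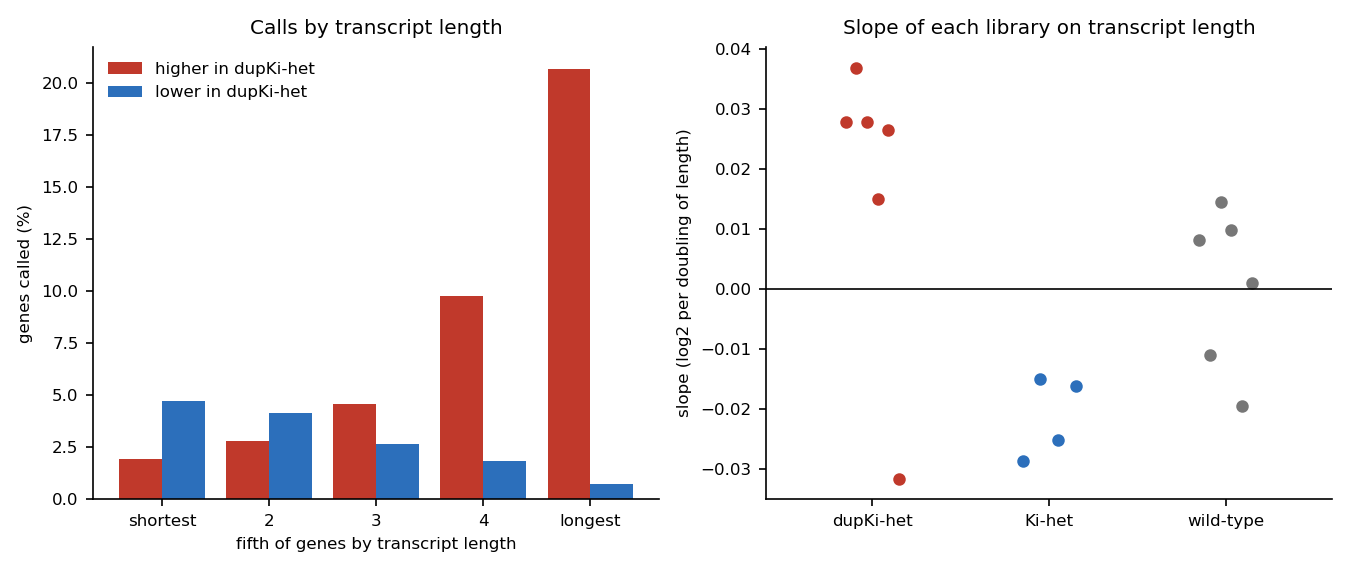
Left, share of genes called higher (red) or lower (blue) in dupKi-het against Ki-het, in percent, by quintile of transcript length; the longest quintile had 20.7% higher and 0.747% lower. Right, slope of each library's log2 level on transcript length for dupKi-het, Ki-het and wild-type; dupKi-het 6, at -0.0316, lies below the Ki-het libraries.

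Since the slope of dupKi-het 6 lay on the side of the Ki-het libraries, its place was read for each gene group. Among all genes called higher, dupKi-het 6 lay above all 4 Ki-het libraries for 836 of 1161 (72.0%), and the other dupKi-het libraries did so for 88.8 to 97.7%. Among genes called lower, dupKi-het 6 lay below all 4 for 315 of 416 (75.7%). The same library lay beyond all Ki-het libraries for 14 of 15 astrocyte genes called lower, 11 of 12 vessel genes called higher and 4 of 4 monoamine genes called lower. It did so for 5 of 5 interferon, 4 of 4 immediate early, 3 of 4 sterol and 2 of 4 potassium channel genes called higher, and for 6 of 10 ribosomal and 2 of 10 respiratory-chain genes called lower. These genes were called with dupKi-het 6 in the fit, so the shares describe the calls and do not test them.

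Astrocyte genes were lower in dupKi-het pons. Of 26 genes in the astrocyte list, 15 (57.7%) were lower and 1 (3.8%) higher, beside 2.81% and 7.84% of all genes. Agt, Etnppl and Slc1a2 were known from earlier results of these data when genes were chosen. The median log2 difference was -0.31, beside 0.03 over all genes. The list's median transcript length was 3070 bases, close to the 3201 bases of all genes tested. Summed over the list, levels ran from 3205 to 3635 FPKM in dupKi-het, from 4440.3 to 4764 FPKM in Ki-het and from 4452 to 5030 FPKM in wild-type libraries, with no overlap between dupKi-het and either of the others. Relative to wild-type, 16 members were lower in dupKi-het and none was called in Ki-het. In bulk tissue, fewer cells of a type and less RNA per cell cannot be told apart. The counts of lower and higher members were 15 and 2 with the length and GC trend removed, 17 and 1 with equal medians, 12 and 0 without dupKi-het 1 and Ki-het 1, and 10 and 0 with the length slope as a covariate.

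Agt, which encodes angiotensinogen and is made in the brain mainly by astrocytes, was the most changed of the list. Its level was 15.9, 22.8, 22.2, 20.2, 24.0 and 23.7 FPKM in dupKi-het, against 56.2, 56.9, 59.8 and 65.0 FPKM in Ki-het libraries. Every dupKi-het value was far below every Ki-het value, and wild-type libraries (median 62.4 FPKM) sat with Ki-het. The difference was -1.44 (SE 0.12, 2.71-fold lower, limma adjusted p = 5.07e-08). Etnppl, an astrocyte enzyme that breaks down phosphoethanolamine, had 10.8, 19.7, 15.1, 12.8, 17.6 and 12.1 FPKM in dupKi-het, against 40.9, 43.4, 41.8 and 32.8 FPKM in Ki-het libraries. The groups again did not overlap, and the difference was -1.40 (SE 0.13, 2.63-fold lower, limma adjusted p = 2.76e-07). Itih3, which encodes a heavy chain of the hyaluronan-binding inter-alpha-trypsin inhibitors, had a mean of 30.6 ± 3.91 FPKM in dupKi-het and 55.4 ± 5.98 FPKM in Ki-het (SD, n = 6 and 4; log2 difference -0.84, limma adjusted p = 0.000135).

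Some genes of glutamate and GABA clearance were lower as well. Glul, the glutamine synthetase that turns cleared glutamate into glutamine, had 600.1, 642, 612, 580.4, 644 and 571 FPKM in dupKi-het, against 1028, 959, 1002 and 948 FPKM in Ki-het libraries. The groups were far apart, and the difference was -0.69 (SE 0.07, 1.62-fold lower, limma adjusted p = 1.36e-06). Slc1a2, the main astrocytic glutamate transporter, had 121, 134, 128, 115, 138 and 98.8 FPKM in dupKi-het, against 178, 169, 164 and 165 FPKM in Ki-het libraries. All dupKi-het libraries were below all Ki-het libraries (log2 difference -0.47, SE 0.07, limma adjusted p = 0.000151). Slc6a11, a GABA transporter of astrocytes, averaged 128 ± 8.12 FPKM in dupKi-het and 163 ± 2.98 FPKM in Ki-het (SD, n = 6 and 4; log2 difference -0.34, limma adjusted p = 0.000255). Slc7a11, the cystine-glutamate exchanger, lay at 2.13 to 2.72 FPKM in dupKi-het and at 6.09, 3.67, 3.57 and 4.32 FPKM in Ki-het libraries (log2 difference -0.63, limma adjusted p = 0.00668). Slc7a11 was not called without both dupKi-het 1 and Ki-het 1 or with the length slope as a covariate (limma adjusted p up to 0.234). Of 14 genes in the list of glutamate and GABA uptake and recycling, 5 (35.7%) were lower and 0 higher. Among all genes, 2.81% were lower and 7.84% higher. The list's median was 0.01.

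Other astrocyte genes differed with clear separation. Gja1 and Gjb6 encode connexins that couple astrocytes. Gja1 lay at 91.4 to 109 FPKM (median 97.0) in dupKi-het, against 146, 139, 134 and 125 FPKM in Ki-het libraries, with a difference of -0.46 (SE 0.05, limma adjusted p = 9.84e-07). Gjb6 had a mean of 63.0 FPKM in dupKi-het and 106 FPKM in Ki-het (log2 difference -0.75, limma adjusted p = 0.000418), and its adjusted p was 0.0508 with the length slope as a covariate. Ntsr2, a neurotensin receptor of astrocytes, averaged 37.2 FPKM in dupKi-het and 55.8 FPKM in Ki-het (log2 difference -0.57, limma adjusted p = 1.89e-05). Aldoc, the glycolytic aldolase of astrocytes, averaged 611 FPKM in dupKi-het and 879 FPKM in Ki-het (log2 difference -0.53, limma adjusted p = 6.58e-05). Fgfr3, a growth factor receptor, averaged 36.9 FPKM in dupKi-het and 51.8 FPKM in Ki-het (log2 difference -0.48, limma adjusted p = 0.000101). Agt, Etnppl, Itih3, Glul, Slc1a2, Slc6a11, Gja1, Ntsr2, Aldoc and Fgfr3 were called in every alternative fit.

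The list was not uniform. Gfap, the intermediate filament of astrocytes, had 67.4, 104, 107, 102, 129 and 129.9 FPKM in dupKi-het, against 156, 149, 134 and 208 FPKM in Ki-het libraries (log2 difference -0.61, limma adjusted p = 0.0276). Its groups came close to each other, and the call was lost without dupKi-het 1 or Ki-het 1, 2 or 4, with adjusted p up to 0.108. Aqp4, the water channel of endfeet, averaged 63.6 FPKM in dupKi-het and 79.1 FPKM in Ki-het (log2 difference -0.30, limma adjusted p = 0.0241), but did not pass without Ki-het 1 or Ki-het 2, with adjusted p up to 0.110. Gpc5, a heparan sulphate proteoglycan, moved the other way at 31.1 to 36.5 FPKM in dupKi-het, against 23.1, 28.7, 28.9 and 29.7 FPKM in Ki-het libraries (log2 difference 0.30, limma adjusted p = 0.0180). That call rested on Ki-het 1, the lowest library, without which the adjusted p was 0.0990. Gjb6, Aldoc, Fgfr3, Aqp4 and Gpc5 were singled out after their values were seen.

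The genes of the metallothioneins Mt1 and Mt2, small proteins that bind zinc and copper, were lower in dupKi-het pons. Transcription of Mt1 and Mt2 is induced through metal response elements, short motifs near the start that the zinc-sensing factor MTF-1 binds. The 250 bases before each annotated start are shown here because both genes moved together, from RefSeq (GRCm38.p6, plus strand, chr8:94178839-94179088 for Mt1 and chr8:94172368-94172617 for Mt2); capitals mark matches to the core TGCACNC or TGCGCNC on either strand.
Mt1: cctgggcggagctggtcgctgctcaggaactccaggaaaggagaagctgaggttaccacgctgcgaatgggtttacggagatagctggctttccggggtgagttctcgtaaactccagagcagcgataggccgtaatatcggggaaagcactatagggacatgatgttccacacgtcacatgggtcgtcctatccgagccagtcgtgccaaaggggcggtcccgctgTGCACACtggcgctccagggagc
Mt2: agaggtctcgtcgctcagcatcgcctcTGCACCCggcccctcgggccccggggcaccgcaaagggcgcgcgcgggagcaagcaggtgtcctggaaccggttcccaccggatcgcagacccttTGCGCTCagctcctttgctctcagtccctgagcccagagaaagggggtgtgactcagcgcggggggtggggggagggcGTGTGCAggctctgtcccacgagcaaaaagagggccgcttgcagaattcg
The Mt1 window held 1 match, and the Mt2 window held 3, with no overlap among them. Bases past the annotated start were not searched, so these counts do not give the number of elements of either gene. Of 27025 RefSeq promoter windows of this length, 21.3% held at least 1 match and 1.28% at least 3, and of the 10320 windows that belong to genes tested here, 30.3% held at least 1 and 2.29% at least 3. A match is a run of letters, and binding was not measured.

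Mt2 had 129, 188, 143, 136, 142 and 185 FPKM in dupKi-het, against 314, 307, 342 and 307 FPKM in Ki-het libraries. Mt1 had 227, 313, 269, 288, 296 and 339 FPKM in dupKi-het, against 508, 570.5, 564 and 602 FPKM in Ki-het libraries. In both genes every dupKi-het library lay far below every Ki-het library, and the wild-type means, 321 FPKM for Mt2 and 526 FPKM for Mt1, were near those of Ki-het. The difference was -1.06 for Mt2 (SE 0.14, 2.08-fold lower, limma adjusted p = 3.85e-05) and -0.97 for Mt1 (SE 0.13, 1.95-fold lower, limma adjusted p = 6.89e-05). Both were called in every alternative fit. Any reads shared by these related genes would make their FPKM uncertain, which was not measured. Mt3, the brain metallothionein, differed less, at a mean of 526 FPKM in dupKi-het and 694 FPKM in Ki-het (log2 difference -0.40, limma adjusted p = 0.0344). Singled out after its values were seen, Mt3 was not called without dupKi-het 1, 2 or 3 or Ki-het 2, 3 or 4, without a filter on low values, or with the length and GC trend removed (limma adjusted p = 0.0755 in the last). Mtf1, which encodes MTF-1, was higher, with a mean of 9.32 FPKM in dupKi-het and 7.18 FPKM in Ki-het (log2 difference 0.34, limma adjusted p = 0.0190), and its adjusted p was 0.0974 without Ki-het 1. Slc30a1, a zinc exporter and MTF-1 target, averaged 8.59 FPKM in dupKi-het and 6.42 FPKM in Ki-het (log2 difference 0.37, limma adjusted p = 0.0235), and was not called without dupKi-het 5 or Ki-het 2, 3 or 4, with adjusted p up to 0.0667. Of 9 metallothionein and zinc handling genes, 3 (33.3%) were lower and 2 (22.2%) higher, beside 2.81% and 7.84% of all genes.

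Dao and Nnat were among the named genes with the larger falls. Dao, the oxidase that degrades D-serine and is made by hindbrain astrocytes, had 3.69, 6.96, 6.84, 5.37, 6.44 and 5.13 FPKM in dupKi-het, against 12.7, 10.2, 10.2 and 11.9 FPKM in Ki-het libraries. The groups did not overlap (log2 difference -0.88, SE 0.11, limma adjusted p = 2.86e-05). Nnat, an imprinted gene that encodes the small membrane protein neuronatin, had 73.3, 92.9, 87.0, 78.4, 74.4 and 94.7 FPKM in dupKi-het, against 184, 169, 134 and 242 FPKM in Ki-het libraries. Its highest dupKi-het library was below its lowest Ki-het library (log2 difference -1.09, SE 0.14, 2.13-fold lower, limma adjusted p = 1.89e-05), and the wild-type mean was 177 FPKM. Of 15 imprinted genes tested, Nnat was the only call between the lines, and 2 were lower with the length and GC trend removed. Of 11 genes of serine and D-serine metabolism 3 (27.3%) were lower, beside 2.81% of all genes. These were Dao, Psph and Gcsh. Psph passed in 2 and Gcsh in 1 of the 10 fits that left out 1 library (limma adjusted p up to 0.149 and 0.108).

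**Figure D2:**
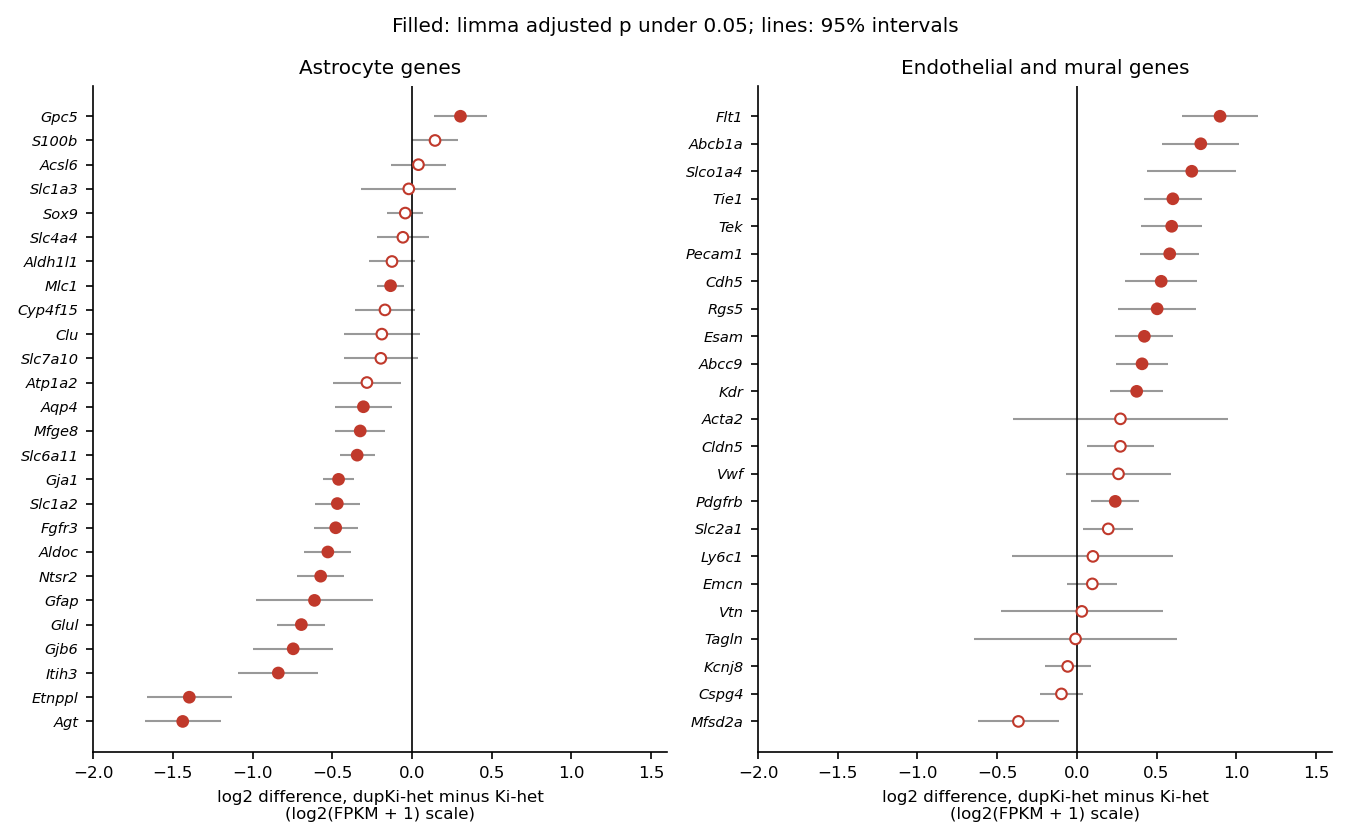
Log2 difference, dupKi-het minus Ki-het, with 95% intervals for each tested member of the astrocyte list (left) and of the endothelial and mural list (right); filled points passed a limma adjusted p under 0.05. Of the astrocyte genes 15 are filled left of 0 and 1 right of it, and of the vessel genes 12 are filled, all right of 0.

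Genes of the vessel wall were higher in dupKi-het pons. Of 23 endothelial and mural genes, 12 (52.2%) were higher and 0 lower, beside 7.84% and 2.81% of all genes. The median log2 difference was 0.27, beside 0.03 over all genes. With equal medians 11 were higher and 1 lower. Summed levels overlapped slightly, at 256 to 314 FPKM in dupKi-het and 201 to 257 FPKM in Ki-het libraries, with wild-type libraries at 228 to 310 FPKM. Median transcript length in the list was 3823 bases, longer than that of all genes. The count was 12 higher with the length and GC trend removed, 11 without dupKi-het 1 and Ki-het 1, and 1 with the length slope as a covariate, where Flt1 was the call. Against wild-type, 5 members were higher in dupKi-het and none was called in Ki-het, whose median was -0.17.

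Flt1, a receptor for vascular endothelial growth factor, had 12.9, 15.8, 13.1, 11.9, 15.5 and 9.27 FPKM in dupKi-het, against 6.48, 5.80, 6.21 and 7.41 FPKM in Ki-het libraries. All dupKi-het libraries were above all Ki-het libraries, dupKi-het 6 by the least, and wild-type libraries lay between, with a mean of 9.53 FPKM. The difference was 0.90 (SE 0.12, 1.86-fold, limma adjusted p = 2.99e-05) and passed in every alternative fit. Abcb1a, the P-glycoprotein drug pump of the blood-brain barrier, had 11.8, 13.6, 12.7, 11.3, 14.3 and 9.55 FPKM in dupKi-het, against 6.25, 6.48, 6.17 and 7.87 FPKM in Ki-het libraries (log2 difference 0.78, SE 0.12, limma adjusted p = 0.000201). Slco1a4, an organic anion transporter of the barrier, lay at 34.0 to 44.6 FPKM in dupKi-het and at 25.4, 20.9, 24.0 and 22.1 FPKM in Ki-het libraries (log2 difference 0.72, limma adjusted p = 0.00152). In both transporters the groups were apart, again with no overlap.

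The receptors Tie1 and Tek, which bind or serve angiopoietins on endothelial cells, were both higher. Tie1 averaged 3.12 FPKM in dupKi-het and 1.71 FPKM in Ki-het (log2 difference 0.60, limma adjusted p = 0.000146), and Tek averaged 4.69 FPKM in dupKi-het and 2.76 FPKM in Ki-het (log2 difference 0.60, limma adjusted p = 0.000230). Pecam1, an adhesion molecule of endothelial junctions, averaged 7.81 FPKM in dupKi-het and 4.87 FPKM in Ki-het (log2 difference 0.58, limma adjusted p = 0.000230). Rgs5, a marker of pericytes, averaged 36.2 FPKM in dupKi-het and 25.2 FPKM in Ki-het (log2 difference 0.50, limma adjusted p = 0.00786). Gpr116, an adhesion receptor of endothelium outside the list, averaged 6.33 FPKM in dupKi-het, 3.19 FPKM in Ki-het and 5.47 FPKM in wild-type pons, and was higher in dupKi-het than in Ki-het (log2 difference 0.80, limma adjusted p = 0.000146). Barrier genes did not all follow. Cldn5, the main tight junction claudin, averaged 15.1 FPKM in dupKi-het and 12.4 FPKM in Ki-het (log2 difference 0.27, limma adjusted p = 0.0895), and the lipid transporter Mfsd2a averaged 19.2 FPKM in dupKi-het and 24.9 FPKM in Ki-het (log2 difference -0.37, limma adjusted p = 0.0578). Tek, Slco1a4, Rgs5, Cldn5 and Mfsd2a were singled out after their values were seen.

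Sgk1, Klf2, Nfkbia, Ddit4 and Net1 were lower in Ki-het than in wild-type pons and were not called between dupKi-het and wild-type. Homozygous single-repeat knock-in pons was also lower than wild-type for Sgk1 (log2 difference -0.81, limma adjusted p = 0.0216) and Gpr116 (-0.62, limma adjusted p = 0.0126). In that line Klf2 (-0.55, limma adjusted p = 0.0704) and Nfkbia (-0.32, limma adjusted p = 0.113) did not pass. Sgk1, a kinase induced by glucocorticoids, had 75.9, 67.7, 89.5, 69.6, 77.0 and 70.3 FPKM in dupKi-het, against 35.9, 44.3, 56.7 and 33.9 FPKM in Ki-het libraries, and 78.8 to 128 FPKM in wild-type libraries. It was higher in dupKi-het than in Ki-het (log2 difference 0.82, SE 0.16, limma adjusted p = 0.00210) and lower in Ki-het than in wild-type (log2 difference -1.17, limma adjusted p = 0.000804), and did not pass between dupKi-het and wild-type (log2 difference -0.34, limma adjusted p = 0.291). Klf2, a shear-responsive factor of endothelium, had 1.85, 2.29, 2.59, 1.72, 2.59 and 1.35 FPKM in dupKi-het, against 0.825, 0.570, 0.467 and 0.450 FPKM in Ki-het libraries. Klf2 averaged 2.09 FPKM in wild-type pons, and its differences were 0.95 for dupKi-het minus Ki-het (limma adjusted p = 0.000146), -0.01 for dupKi-het minus wild-type (limma adjusted p = 0.992) and -0.96 for Ki-het minus wild-type (limma adjusted p = 0.00119).

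Nfkbia, which encodes an inhibitor of NF-kappaB, was also lowest in Ki-het pons. It had 14.1, 12.3, 17.7, 13.3, 16.2 and 16.5 FPKM in dupKi-het, against 7.89, 9.67, 10.3 and 9.86 FPKM in Ki-het libraries, with a wild-type mean of 14.4 FPKM. The groups of knock-in libraries did not overlap (log2 difference 0.61, SE 0.09, limma adjusted p = 0.000213), and Ki-het was lower than wild-type (log2 difference -0.57, limma adjusted p = 0.00674). Ddit4, a stress-induced inhibitor of mTOR, averaged 30.7 FPKM in dupKi-het, 21.7 FPKM in Ki-het and 35.8 FPKM in wild-type (dupKi-het minus Ki-het 0.48, limma adjusted p = 0.00232; Ki-het minus wild-type -0.68, limma adjusted p = 0.000804). Net1, a guanine exchange factor for RhoA, averaged 8.29 FPKM in dupKi-het, 4.49 FPKM in Ki-het and 6.95 FPKM in wild-type (dupKi-het minus Ki-het 0.76, limma adjusted p = 7.03e-06; Ki-het minus wild-type -0.53, limma adjusted p = 0.00674). Sgk1, Klf2, Nfkbia, Ddit4, Net1 and Gpr116 are among the 15 genes called lower in Ki-het than in wild-type. Against wild-type, Nfkbia and Net1 were not called without Ki-het 1 (adjusted p = 0.0614 for both), and Gpr116 was not called without Ki-het 1, 2 or 3 (adjusted p up to 0.190). Because the Ki-het libraries enter both differences, a low Ki-het level moves both. With the length slope as a covariate, Nfkbia and Net1 passed between the knock-in lines, while the adjusted p was 0.0784 for Sgk1, 0.0558 for Klf2 and 0.231 for Ddit4. Ddit4 and Net1 were singled out after their values were seen.

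The list of glucocorticoid targets did not move one way. Of 14 genes, 5 (35.7%) were higher and 4 (28.6%) lower, beside 7.84% and 2.81% of all genes, with a median of 0.05. The lower ones included Mt1 and Mt2. Without dupKi-het 1, 2, 3, 4 or 5 or Ki-het 1, 3 or 4, 2 were lower. Pdk4, a kinase that restrains pyruvate oxidation, was higher, with means of 7.26 FPKM in dupKi-het and 4.73 FPKM in Ki-het (log2 difference 0.53, limma adjusted p = 0.000980). Of 13 immediate early genes, 4 (30.8%) were higher and 0 lower, beside 7.84% and 2.81% of all genes, with a median of 0.22. Against wild-type, the list's median was -0.07 in dupKi-het, with 0 calls, and -0.35 in Ki-het, with 1 lower. Fos averaged 10.2 FPKM in dupKi-het, 6.32 FPKM in Ki-het and 10.4 FPKM in wild-type pons. Egr1 averaged 8.96, 6.37 and 9.13 FPKM in the same order, and Klf4 2.17, 1.06 and 1.74 FPKM. With equal medians 3 were higher and 1 lower. Without dupKi-het 2, 3 or 5 or Ki-het 1, 3 or 4, 2 were higher. Klf4, related to Klf2, averaged 2.17 FPKM in dupKi-het and 1.06 FPKM in Ki-het (log2 difference 0.62, limma adjusted p = 0.00386). Fos and Egr1, the classical activity-induced factors, also passed (limma adjusted p = 0.0377 and 0.0376), but did so in 3 and 4 of the 10 fits that left out 1 library (adjusted p up to 0.0896 and 0.110).

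Lcn2, which encodes the iron-siderophore carrier lipocalin 2 and is induced in inflamed astrocytes and vessels, had the largest fall of the genes named. It had 0.484, 0.337, 2.18, 0.821, 0.246 and 0.614 FPKM in dupKi-het, against 21.5, 3.40, 4.90 and 3.07 FPKM in Ki-het libraries. All Ki-het libraries were above all dupKi-het and wild-type libraries, whose highest value was 2.18 FPKM in each group, and Ki-het 1 was far above the rest. The difference was -2.05 (SE 0.38, limma adjusted p = 0.00131) between dupKi-het and Ki-het, -0.22 (limma adjusted p = 0.878) between dupKi-het and wild-type, and 1.83 (limma adjusted p = 0.0499) between Ki-het and wild-type. Without any one library the first of these had an adjusted p of at most 0.00671, and with the length slope as a covariate it was 0.0784. The difference from wild-type passed in 2 of the 10 fits that left out 1 library, and its adjusted p was 0.240 without Ki-het 1. Of 12 genes of reactive gliosis, 2 (16.7%) were lower (Lcn2 and Gfap) and 0 higher, beside 2.81% and 7.84% of all genes. Without dupKi-het 1 or Ki-het 1, 2 or 4, 1 was lower.

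**Figure D3:**
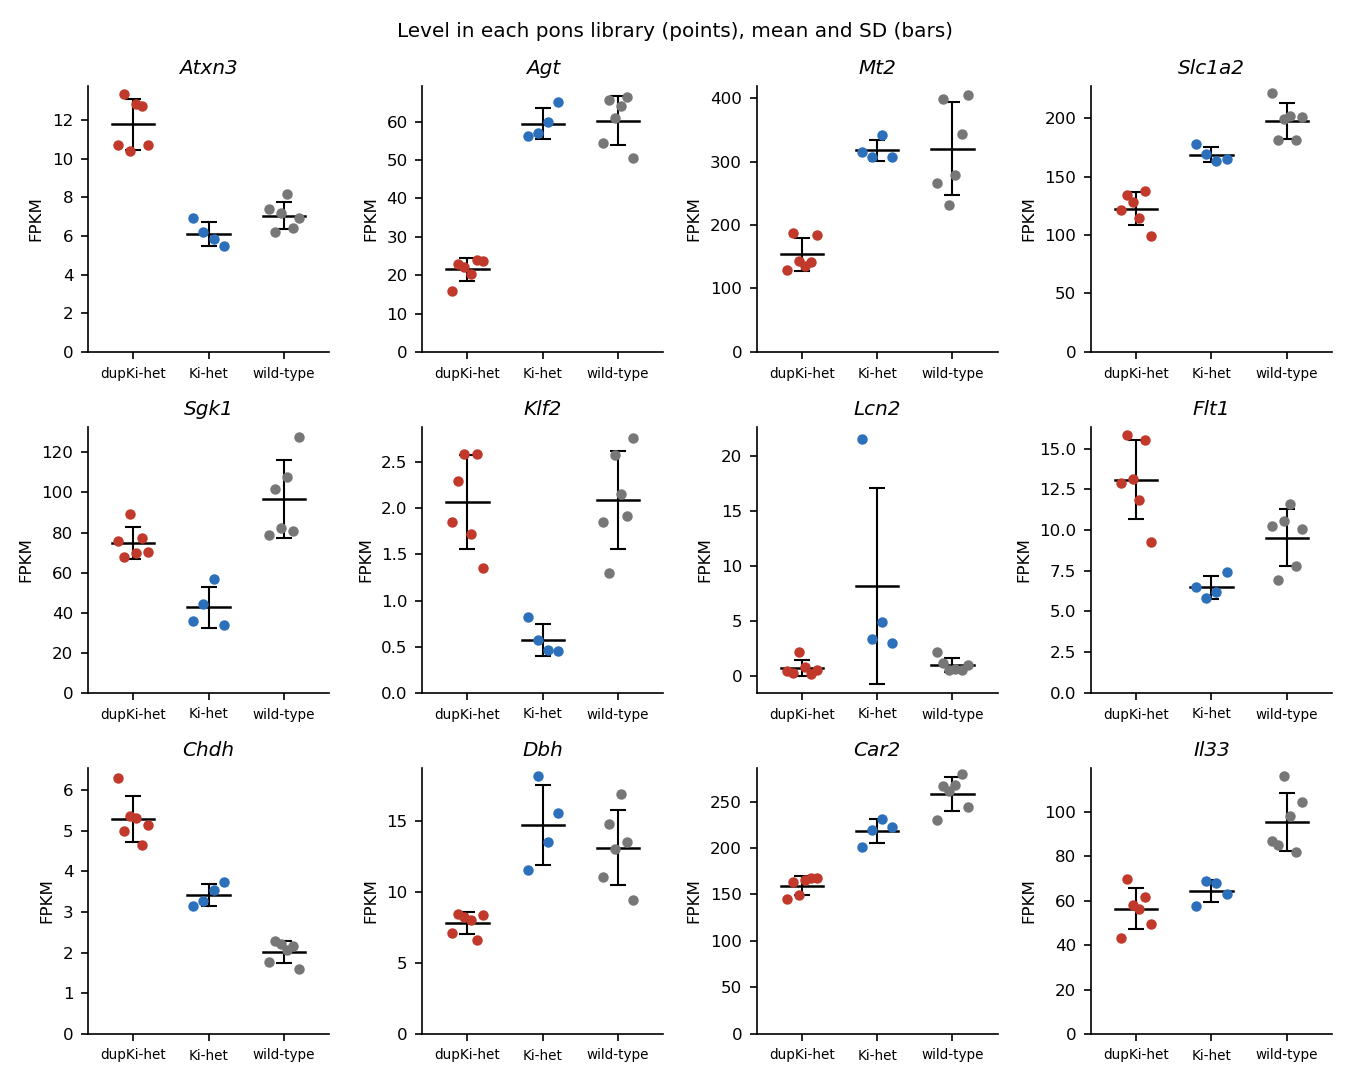
FPKM of 12 genes in every dupKi-het (n = 6), Ki-het (n = 4) and wild-type (n = 6) library (points), with the mean and SD (bars). Atxn3, Agt, Mt2, Slc1a2, Flt1, Chdh, Dbh and Car2 do not overlap between dupKi-het and Ki-het, Sgk1, Klf2 and Lcn2 set Ki-het apart from both others, and Il33 overlaps between the knock-in lines.

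Oligodendrocytes make myelin, and of 37 mature oligodendrocyte and myelin genes 3 (8.1%) were lower and 1 (2.7%) higher in dupKi-het, beside 2.81% lower and 7.84% higher of all genes, with a median of -0.11; with equal medians 9 were lower and 1 higher, and with the length slope as a covariate 0 were called. Without Ki-het 2 or Ki-het 4, 1 was lower, and without dupKi-het 1 or Ki-het 3, 5 were. Against wild-type, 13 members were lower in dupKi-het and 2 in Ki-het. Car2, a carbonic anhydrase of oligodendrocytes, had 145, 163, 149, 166, 168 and 167 FPKM in dupKi-het, against 201, 219, 231 and 223 FPKM in Ki-het libraries, with no overlap (log2 difference -0.45, SE 0.08, limma adjusted p = 0.000972). Its adjusted p with the length slope as a covariate was 0.128. Adamts4, a matrix protease of mature oligodendrocytes, was the gene that rose, at means of 24.1 FPKM in dupKi-het and 18.3 FPKM in Ki-het (log2 difference 0.38, limma adjusted p = 0.00145). The other calls were the myelin genes Cldn11 and Mobp, each with a difference of -0.31, with limma adjusted p = 0.0290 and 0.0345. Cldn11 was lost without dupKi-het 5 or Ki-het 1, 2 or 4 (adjusted p up to 0.142), and Mobp passed in 5 of the 10 fits that left out 1 library (adjusted p up to 0.0990).

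Some genes that were low in a knock-in line against wild-type did not pass between the lines. Il33, an alarmin made by oligodendrocytes and astrocytes, had 43.2 to 69.8 FPKM (median 57.1) in dupKi-het, and 57.8, 68.7, 68.0 and 63.0 FPKM in Ki-het libraries, against 82.1 to 116 FPKM in wild-type libraries. The knock-in groups overlapped (log2 difference -0.20, limma adjusted p = 0.257), and each was below wild-type (dupKi-het -0.75, limma adjusted p = 1.56e-05; Ki-het -0.55, limma adjusted p = 0.0428), the Ki-het call in 4 of the 10 fits that left out 1 library (adjusted p up to 0.218). Klk6, a protease of oligodendrocytes, averaged 35.2 FPKM in dupKi-het, 50.3 FPKM in Ki-het and 59.0 FPKM in wild-type pons (dupKi-het minus Ki-het -0.49, limma adjusted p = 0.0649). A p that misses the threshold does not show that the lines have the same level. Mbp, which encodes myelin basic protein, was listed at 0 in all dupKi-het and wild-type libraries beside 4632 to 5819 FPKM in Ki-het libraries, and was left out of the tests with 11 other genes of that kind. Among 19 precursor genes 2 (10.5%) were higher, near the 7.84% of all genes, the matrix protein gene Tnr (log2 difference 0.56, limma adjusted p = 0.00195) and Sema5a, and of 12 lineage factors Sox8 was higher (limma adjusted p = 0.0255) but not without dupKi-het 2 or Ki-het 1 or 2 (adjusted p up to 0.109). Without dupKi-het 6 or Ki-het 4, 4 precursor genes were higher. The precursor list had a median transcript length of 4970 bases, and Tnr and Sema5a did not pass with the length slope as a covariate (limma adjusted p = 0.492 for both).

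Chdh, the mitochondrial enzyme that oxidises choline to betaine, was stepwise different across the 3 genotypes. It had 6.30, 5.00, 5.37, 5.31, 4.64 and 5.13 FPKM in dupKi-het, 3.14, 3.26, 3.53 and 3.72 FPKM in Ki-het, and 1.59 to 2.29 FPKM in wild-type libraries. No library of one genotype overlapped another. The difference was 0.51 for dupKi-het minus Ki-het (SE 0.08, limma adjusted p = 0.000157), 1.06 for dupKi-het minus wild-type (limma adjusted p = 2.65e-10) and 0.56 for Ki-het minus wild-type (limma adjusted p = 0.000804), and the first was called in every alternative fit. Acy3, an aminoacylase, had 4.75, 4.79, 4.96, 5.14, 4.14 and 5.56 FPKM in dupKi-het, against 2.81, 2.79, 3.56 and 3.40 FPKM in Ki-het libraries, with no overlap (log2 difference 0.51, SE 0.10, limma adjusted p = 0.00209). Acy3 averaged 2.48 FPKM in wild-type pons, from which Ki-het was not called different (log2 difference 0.26, limma adjusted p = 0.352). Slc45a3, a sugar transporter of oligodendrocytes, averaged 4.32 FPKM in dupKi-het, 2.82 FPKM in Ki-het and 2.46 FPKM in wild-type pons (dupKi-het minus Ki-het 0.48, limma adjusted p = 0.00295; Ki-het minus wild-type 0.14, limma adjusted p = 0.681). Folh1, the peptidase that cleaves N-acetylaspartylglutamate, averaged 10.5 FPKM in dupKi-het and 8.89 FPKM in Ki-het (log2 difference 0.22, limma adjusted p = 0.00856), a call lost with equal medians. Of 15 genes of choline, betaine and phosphoethanolamine metabolism, 3 (20%) were higher and 1 (6.7%), Etnppl, was lower, beside 7.84% and 2.81% of all genes. Of the 3, Chdh alone was higher with the length and GC trend removed or with only these groups fitted, and with equal medians 2 genes were higher and 2 lower. Of 7 genes listed under N-acetylaspartate metabolism 2 (28.6%) were higher, Acy3 and Folh1, beside 7.84% of all genes. Action of Acy3 on N-acetylaspartate was not tested.

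Noradrenaline genes were lower in dupKi-het pons. Of 15 monoamine neuron genes, 4 (26.7%) were lower and 0 higher, beside 2.81% and 7.84% of all genes, with a median of -0.24. Summed levels did not overlap, at 152 to 177 FPKM in dupKi-het and 179 to 259 FPKM in Ki-het libraries. Wild-type libraries lay at 169 to 203 FPKM. Dbh, the enzyme that makes noradrenaline from dopamine, had 7.11, 8.44, 8.21, 8.03, 6.58 and 8.38 FPKM in dupKi-het, against 11.5, 18.1, 13.5 and 15.6 FPKM in Ki-het libraries (log2 difference -0.82, SE 0.16, limma adjusted p = 0.00238). Th, the first enzyme of catecholamine synthesis, had 5.36, 6.18, 6.71, 5.01, 4.87 and 6.34 FPKM in dupKi-het, against 7.49, 9.25, 9.97 and 9.65 FPKM in Ki-het libraries (log2 difference -0.58, SE 0.11, limma adjusted p = 0.00111). Neither gene overlapped between the lines. The vesicular transporter Slc18a2 averaged 12.1 FPKM in dupKi-het and 18.9 FPKM in Ki-het (log2 difference -0.58, limma adjusted p = 0.00661), and the noradrenaline transporter Slc6a2 averaged 4.94 FPKM in dupKi-het and 7.68 FPKM in Ki-het (log2 difference -0.57, limma adjusted p = 0.0162; 0.0600 without Ki-het 2). Against wild-type, Dbh was lower in dupKi-het (log2 difference -0.66, limma adjusted p = 0.0101; 0.0800 without the libraries above 1000 FPKM of Ttr) and Th was not called (log2 difference -0.29, limma adjusted p = 0.116). Tph2, the serotonin-synthesis enzyme of raphe neurons, varied widely in Ki-het, with 28.6, 11.3, 14.9 and 44.1 FPKM, against 11.2 to 15.8 FPKM in dupKi-het, and did not pass (log2 difference -0.65, limma adjusted p = 0.0815). How much of the small locus coeruleus each dissection held was not measured. All 4 calls held without dupKi-het 1 and Ki-het 1, and none held with the length slope as a covariate. Tph2 was singled out after its values were seen.

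Neuronal genes were among the largest rises. Glra1, the adult glycine receptor subunit of brainstem neurons, had 54.1, 67.6, 64.9, 52.0, 73.6 and 35.5 FPKM in dupKi-het, against 25.6, 29.8, 34.7 and 31.6 FPKM in Ki-het libraries (log2 difference 0.88, SE 0.15, limma adjusted p = 0.000767). Kcna2, an axonal potassium channel, had 37.8, 37.9, 34.7, 31.1, 41.9 and 21.0 FPKM in dupKi-het, against 17.7, 19.0, 19.3 and 18.9 FPKM in Ki-het libraries (log2 difference 0.80, SE 0.15, limma adjusted p = 0.00129). Sv2c, a synaptic vesicle protein, had 44.4, 42.6, 44.9, 40.6, 49.2 and 27.0 FPKM in dupKi-het, against 20.2, 23.2, 25.6 and 22.1 FPKM in Ki-het libraries (log2 difference 0.82, SE 0.13, limma adjusted p = 0.000235). In all 3 genes dupKi-het 6 was the lowest of its group and came close to Ki-het. With the length slope as a covariate the adjusted p was 0.292 for Glra1, 0.436 for Kcna2 and 0.115 for Sv2c. Of 10 genes of glycine and GABA transmission 2 (20%) were higher and 1 (10%) lower, beside 7.84% and 2.81% of all genes. The glycine transporter Slc6a5 (limma adjusted p = 0.0461) passed in 3 of the 10 fits that left out 1 library (adjusted p up to 0.175). limma made no call among 13 pan-neuronal, 9 cholinergic and motor neuron, 12 cerebellar or 15 neuropeptide genes, of which 1, 1, 4 and 0 had an unadjusted p under 0.05. Of these 4 lists, with equal medians 1 cholinergic gene and 1 cerebellar gene were lower.

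Some interferon targets were higher in dupKi-het pons. Of 22 interferon response genes, 5 (22.7%) were higher and 0 lower, beside 7.84% and 2.81% of all genes. A positive difference was found in 21, beside 8306 of all 14802 genes, and the median was 0.22. With equal medians 3 were higher. Ifitm1, an interferon-induced gene outside the list, was lower (log2 difference -1.01, limma adjusted p = 0.0313). It lay at 2.26 to 6.69 FPKM in dupKi-het and at 7.93 to 12.3 FPKM in Ki-het libraries. The Ifitm1 call passed in 6 of the 10 fits that left out 1 library (adjusted p up to 0.099). Gbp3, an interferon-induced GTPase, had 3.05, 3.64, 4.34, 3.82, 3.54 and 3.60 FPKM in dupKi-het, against 1.72, 2.39, 1.65 and 3.04 FPKM in Ki-het libraries (log2 difference 0.56, SE 0.11, limma adjusted p = 0.00226). The groups were just apart, with the lowest dupKi-het value beside the highest Ki-het value. Irf7, a master factor of interferon production, averaged 2.46 FPKM in dupKi-het and 1.34 FPKM in Ki-het (log2 difference 0.57, limma adjusted p = 0.0268). Irf7 was lost without dupKi-het 5 or Ki-het 1 or 2 (adjusted p up to 0.119), and the list held 2 calls without Ki-het 1, 1 without Ki-het 2 and 3 without Ki-het 3 or dupKi-het 5. It held 1 without dupKi-het 1 and Ki-het 1. Of 21 microglia and complement genes, 1 (4.8%) was lower, beside 2.81% of all genes. This was C1qb (log2 difference -0.33, limma adjusted p = 0.0319). It passed in 4 of the 10 fits that left out 1 library (adjusted p up to 0.0883). With equal medians 3 genes of that list were lower. Without a filter on low values limma called none, nor with the length and GC trend removed.

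A few sterol genes were also higher. Of 19 genes of cholesterol synthesis and its control, 4 (21.1%) were higher and 0 lower, beside 7.84% and 2.81% of all genes. The median was 0.13. With equal medians 3 were higher and 2 lower. Against wild-type, the list's median was -0.06 in dupKi-het and -0.17 in Ki-het, with 0 calls in each. Lss, the lanosterol synthase of the pathway, had 15.1, 16.7, 17.4, 11.1, 17.4 and 13.3 FPKM in dupKi-het, against 9.17, 9.85, 12.4 and 11.0 FPKM in Ki-het libraries (log2 difference 0.47, SE 0.13, limma adjusted p = 0.0224). The groups overlapped through dupKi-het 4, and the call was lost without dupKi-het 2, 3 or 5 or Ki-het 1 or 2 (limma adjusted p up to 0.0865). Without Ki-het 1 or dupKi-het 5, 1 member of the list was called; without dupKi-het 2, dupKi-het 3 or Ki-het 2, 2 were. Of genes that act with ataxin-3 in protein clearance, 21 were tested and 2 (9.5%) were called higher, near the 7.84% of all genes, Atxn3 itself and the proteasome subunit gene Psmd1 (log2 difference 0.16), which was lost without dupKi-het 2 or 4 or Ki-het 1 or 2 (adjusted p up to 0.139). limma called no heat shock gene of 13, with 2 at an unadjusted p under 0.05, and of 19 genes of the ER stress and ATF4 response Slc7a11 alone was, as lower, with the losses given above.

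**Figure D4:**
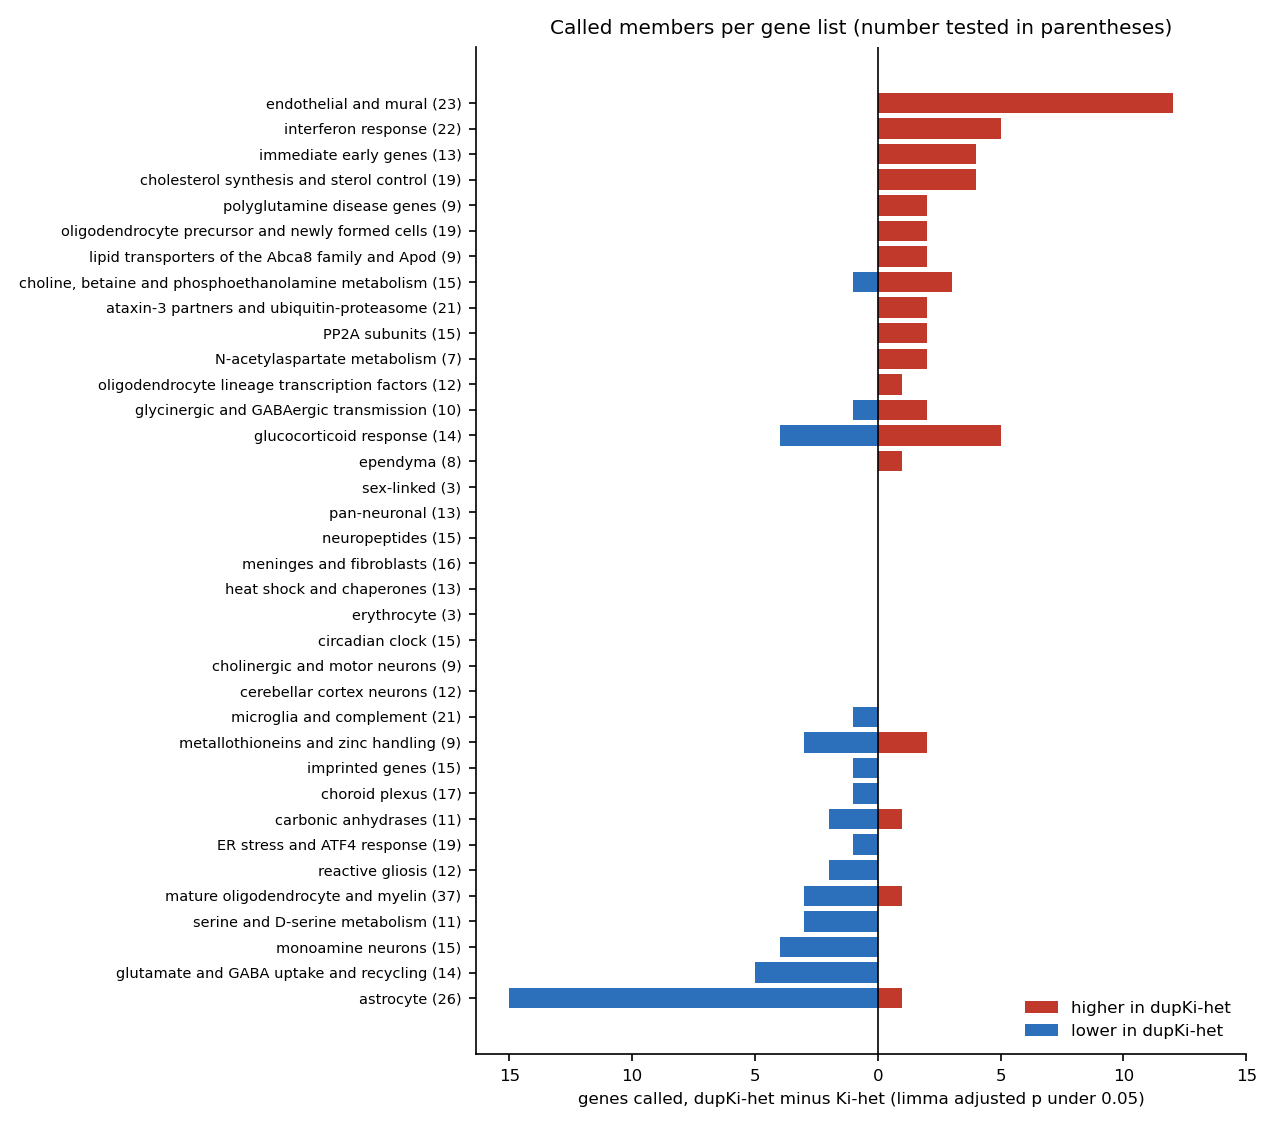
Number of genes called higher (red, right) and lower (blue, left) in dupKi-het against Ki-het for each gene list, with the number tested in parentheses. The astrocyte list reaches 15 lower and the endothelial and mural list 12 higher.

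Genes of tissues that border the pons were read beside these results. limma called no meningeal gene of 16, with 1 at an unadjusted p under 0.05, but all 16 differences were negative, with a median of -0.36, and summed levels ran from 326 to 867 FPKM in dupKi-het and from 698 to 1725 FPKM in Ki-het libraries. No marker of that list was at 0 in a whole group. Mgp, a matrix protein gene of vessel and meningeal cells, was lower, with 19.4, 21.6, 28.3, 26.8, 29.2 and 37.3 FPKM in dupKi-het, against 71.9, 41.7, 45.6 and 104 FPKM in Ki-het libraries (log2 difference -1.18, limma adjusted p = 0.0274), but was lost without dupKi-het 1 or 2 or Ki-het 1 or 4 (adjusted p up to 0.109). Choroid plexus genes, summed, ran from 558 to 3788.5 FPKM in dupKi-het and from 617 to 4592 FPKM in Ki-het libraries. Each group spanned most of the other's range. Of 17 choroid plexus genes tested 1 (5.9%) was lower, beside 2.81% of all genes. This was Kcnj13, which passed in 3 of the 10 fits that left out 1 library (adjusted p up to 0.0983) and lies inside Gigyf2, so that reads of the genes cannot be told apart. Of 8 ependymal genes 1 (12.5%) was higher, beside 7.84% of all genes, and this was Pltp, a phospholipid carrier. With Ttr as a covariate 1755 genes were called. The part that meningeal tissue had in the lower genes was not tested.

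Short housekeeping transcripts, added as lists after their values were seen, were lower in small steps. Of 71 cytosolic ribosomal protein genes, 10 (14.1%) were lower and 1 (1.4%) higher, beside 2.81% and 7.84% of all genes. A negative difference was found in 70 of them, while 8306 of all 14802 genes had a positive difference. Their median difference was -0.21 and their median length 1109 bases. Of 80 nuclear-encoded genes of the respiratory chain, 10 (12.5%) were lower and 0 higher, and 74 had a negative difference. Their median difference was -0.17 and their median length 1046 bases. Both counts followed scale and library. With equal medians 33 ribosomal and 31 respiratory genes were lower, without dupKi-het 1 and Ki-het 1 it was 2 and 0, and with the length slope as a covariate it was 0 of each. Leaving out 1 library gave 5 (without Ki-het 1 or Ki-het 2) to 25 (without dupKi-het 6) lower ribosomal genes and 3 (without dupKi-het 2 or dupKi-het 3) to 21 (without dupKi-het 6) lower respiratory genes.

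Chromosome 12, where Atxn3 lies, had a share of calls near that of all genes. Of its 507 genes tested, 45 were higher and 16 lower, or 12.0%, beside 10.7% of all genes. Among the 20 nearest tested neighbours of Atxn3, 5 were called, with 3 higher and 2 lower. Fbln5, a gene of elastic fibres that lies 3 places away, had a mean of 1.76 FPKM in dupKi-het and 2.69 FPKM in Ki-het (log2 difference -0.42, limma adjusted p = 0.0127; 0.0556 without Ki-het 1). Slc24a4, a sodium-calcium exchanger gene 2 places away, averaged 2.24 FPKM in dupKi-het and 3.40 FPKM in Ki-het (log2 difference -0.45, limma adjusted p = 0.0162). The other calls, Rps6ka5, Trip11 and Ubr7, differed by 0.18 to 0.23 and passed in 1 to 3 of the 10 fits that left out 1 library (adjusted p up to 0.142). Further along the chromosome, Mdga2, an adhesion molecule of synapses, averaged 11.8 FPKM in dupKi-het and 7.47 FPKM in Ki-het (log2 difference 0.59, limma adjusted p = 0.000711), and Ttc9 averaged 31.1 FPKM in dupKi-het and 23.9 FPKM in Ki-het (log2 difference 0.37, limma adjusted p = 0.000806). The neighbours were singled out after their values were seen.

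**Figure D5:**
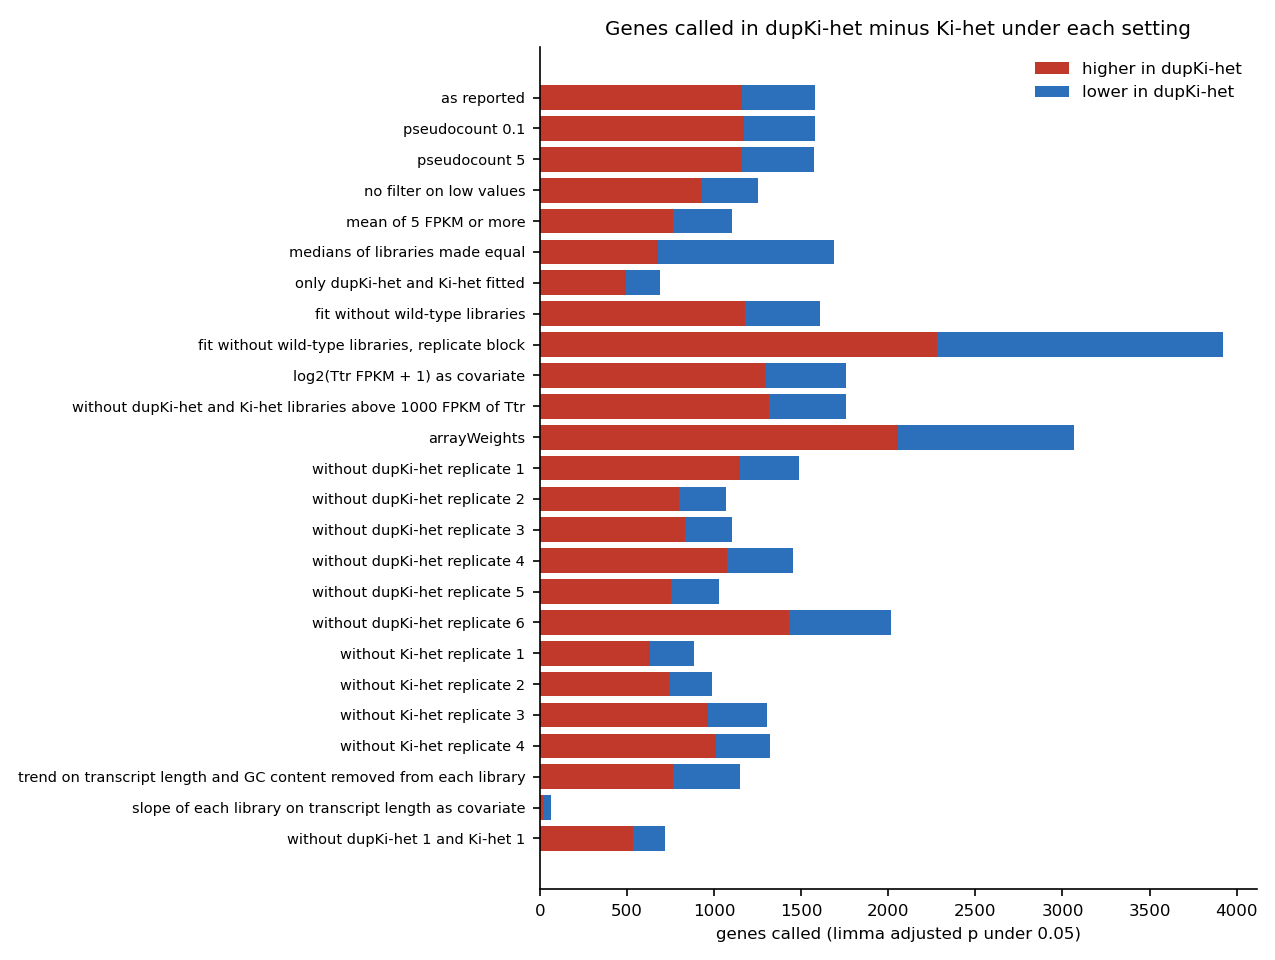
Number of genes called between dupKi-het and Ki-het under each setting, higher in red and lower in blue. The count as reported is 1577, and it runs from 63 with the length slope as a covariate to 3921 with a replicate block.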

How the data were processed

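Total RNA from the pons was extracted with Trizol and then RNeasy, as the labels' protocols say. The authors deposited FPKM per gene and library. Tools listed without roles are TopHat2, Cuffdiff, DESeq, Trimmomatic, FastQC and CASAVA 1.8.2, with the build mm8, per the submitters' processing notes. FPKM keep no read totals, so depth is unknown and precision rests on the spread between libraries.

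The table held 41386 lines, of which 27 had a date for a name and were left out and 132 repeated a symbol and were summed, leaving 41227 genes. Of 37 value columns 28 were used and 9 were not. Some wild-type column names matched more than 1 sample of that genotype, so those columns were used as wild-type without a number of their own. Wild-type libraries 4, 5 and 6 each matched a single sample, titled wild-type 14, 15 and 16. Left out were 12 genes listed at 0 in a whole group beside clear values in another. Kept were 14802 genes at 1 FPKM or more in at least 3 of the 28 libraries, and log2(FPKM + 1) was analysed. limma 3.58.1 in R 4.3.3 was fitted with a trend and one mean per genotype, and two-sided p-values were adjusted by Benjamini-Hochberg over all genes; a gene was called under 0.05. The labels number dupKi-het and Ki-het mice but state no shared litter or batch. Replicates are separate mice as far as the design text says. The fit was tested on simulated data.

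Transcript length and GC content came from GENCODE M21, another build than the files', and were found for 14066 genes (95.0%). Chromosomes and neighbouring genes came from RefSeq, also another build than the files'. Promoter sequences came from RefSeq (GRCm38.p6). Alternatives were other pseudocounts (0.1 and 5), filters, scaling, sample sets, covariates, weights, a replicate block and leaving out each library; Python 3.11.15, pandas 2.3.3 and matplotlib 3.10.9 made summaries and figures. Genes named were Atxn3, the 12 largest rises and 12 largest falls among called genes (predicted models and small RNAs passed over), up to 4 called genes per list by adjusted p (up to 2 by unadjusted p in a list with none), up to 5 on chromosome 12, and 11 genes known from earlier results; some of these are not reported here. Members and lists were chosen with earlier results of these data known.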

Additional observations from a re-analysis of the deposited data

Results flagged for a closer look

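Of 242 groups of libraries examined for the genes named, 14 held a library far from the others of its group, where the critical values used let chance give about 1 in 20. In dupKi-het 1, Itih3 (23.1 FPKM, others 30.2 to 33.8), Gfap (67.4 FPKM, others 102 to 129.9) and Aldoc (534 FPKM, others 615 to 639.6) were the lowest of their group. In the same library Aqp4 (71.0 FPKM, others 60.4 to 63.9) and Eif2s3y (33.4 FPKM, others 24.5 to 27.3) were the highest; Eif2s3y has a near-identical X-linked copy, so its FPKM are uncertain. In dupKi-het 6, Sv2c was lowest (27.0 FPKM, others 40.6 to 49.2) and Gcsh highest (44.3 FPKM, others 38.7 to 40.6). In dupKi-het 2, Ubr7 was lowest (9.76 FPKM, others 10.4 to 10.6).

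Among Ki-het libraries, Ki-het 1 was lowest for Gcsh (44.1 FPKM, others 46.4 to 46.8), Gpc5 (23.1 FPKM, others 28.7 to 29.7) and Net1 (3.91 FPKM, others 4.61 to 4.73). Ki-het 4 was highest for Irf9 (6.07 FPKM, others 3.86 to 3.96) and Atxn7 (3.70 FPKM, others 3.43 to 3.46). Calcb was highest in Ki-het 3 (5.91 FPKM, others 4.13 to 4.20).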

How the results depend on the processing

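Of 97 named genes called between dupKi-het and Ki-het, 60 passed in every fit that left out 1 library and 20 in every fit run. The count over all genes, 1577, was 691 with only these groups fitted, 3068 with library weights, 63 with the length slope as covariate, 716 without dupKi-het 1 and Ki-het 1, and 885 to 2013 when 1 library was left out. With wild-type left out it was 1609, and 3921 with a replicate block in that fit. Same-numbered libraries 1 to 4 had correlated deviations of 0.248, 0.206, -0.0519 and 0.143; 3 of these 4 were the highest for both libraries, a hint from the data and not the design, but number 3 was below 0.1, so the numbers were not taken to pair the mice. For dupKi-het minus wild-type, 375 genes became 577 with library weights and 291 to 471 with 1 library left out. For Ki-het minus wild-type, 17 genes became 10 without a filter, with equal medians, with Ttr as covariate and without libraries above 1000 FPKM of Ttr; 11 with a pseudocount of 5 or a mean of at least 5 FPKM; 165 with library weights; 30 with the length and GC trend removed; 7 with the slope; 5 without both number 1 libraries; and 5 to 22 with 1 library left out. Uncalled differences turned sign for Map2 (-0.0126) and Alas2 (-0.11) with the slope and for Xist (-0.0140) with the trend removed. The slope, trend and number 1 settings were chosen after seeing the data. The cause was not tested in any of these.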

Other observations

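Some gene groups outside the main account held a few calls in dupKi-het against Ki-het, beside 7.84% of all genes called higher and 2.81% lower. Of 281 zinc finger genes named Zfp, a list added after the values were seen, 34 were higher and 3 lower, with equal medians 18 were higher and 10 lower, and 17 (without dupKi-het 5) to 40 (without dupKi-het 1 or 6) were higher when 1 library was left out. Of 23 voltage-gated potassium channel genes, added in the same way, 4 were higher and 0 lower; with equal medians 2 were higher and 1 lower, and 1 (without Ki-het 1) to 9 (without dupKi-het 6) were higher when 1 library was left out. Of 11 carbonic anhydrase genes, Car2 and Car7 were lower and Car4 higher; Car4, the membrane-bound form of brain capillaries, averaged 8.72 FPKM in dupKi-het and 5.52 FPKM in Ki-het (log2 difference 0.57, limma adjusted p = 0.00338). Of 15 PP2A phosphatase subunit genes 2 were higher, or 1 without dupKi-het 2 or Ki-het 2, 3 or 4, and Ppp2r3a averaged 13.9 FPKM in dupKi-het and 10.9 FPKM in Ki-het (log2 difference 0.32, limma adjusted p = 0.00232). Of 9 polyglutamine disease genes, 2 were higher, Atxn3 and Atxn7, and the Atxn7 call was lost with equal medians; without dupKi-het 6, 4 were higher. Of 9 genes in the list built around Abca8 and Apod 2 were higher, the sugar transporter gene Slc45a3 and Abca8b. With equal medians 1 was higher and 1 lower. The Abca8b call was lost with equal medians and with the length and GC trend removed (limma adjusted p = 0.117 in the latter). limma called no circadian clock gene of 15 and no gene of 3 erythrocyte or 3 sex-linked genes, with 2, 0 and 1 at an unadjusted p under 0.05, and with equal medians 1 clock gene was lower.

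The pseudogene Vmn2r-ps83 had the largest rise of the genes named (log2 difference 1.73, limma adjusted p = 0.0265). It had 0.00275, 3.07, 4.44, 3.97, 4.62 and 1.52 FPKM in dupKi-het, and 0, 0, 0.0624 and 0.05 FPKM in Ki-het libraries. Wild-type libraries spread from 0 to 5.30 FPKM, dupKi-het 1 was as low as the Ki-het libraries, and the call passed in 3 of the 10 fits that left out 1 library (adjusted p up to 0.0658). Erdr1 had 4.02 to 14.3 FPKM in dupKi-het and 15.1 to 19.5 FPKM in Ki-het (log2 difference -0.98, limma adjusted p = 0.0431), with wild-type libraries at 6.52 to 20.4 FPKM, and passed in 2 of those 10 fits (adjusted p up to 0.110).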
